A study of Mus musculus with 6 samples.

Results

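The UDP-glucuronosyltransferases of families 2 and 3 were followed in mouse liver RNA as 10 genes chosen by name: Ugt2a3, Ugt2b1, Ugt2b5, Ugt2b34, Ugt2b35, Ugt2b36, Ugt2b37, Ugt2b38, Ugt3a1 and Ugt3a2. All 10 were among the 24421 gene symbols of the count table. The libraries came from male C57BL/6 mice aged 4 months, of which 3 lacked Sesn3 (KO) and 3 were wild-type controls (WT). Every mouse, wild type included, had been kept for 4 weeks on a feed with cholesterol at 1.25% and sodium cholate, a bile salt, at 0.5%, in which fat and carbohydrate each gave 40% of the energy and protein 20%. The labels do not give how the knockout allele was made or whether it was restricted to a tissue, and no mice on another diet were analysed here. Sesn3 encodes sestrin 3, a stress-inducible regulator of mTORC1 and AMPK signalling.

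UDP-glucuronosyltransferases (UGTs) are membrane enzymes of the endoplasmic reticulum. Those of families 1 and 2 move glucuronic acid from UDP-glucuronic acid onto bilirubin, steroids, bile acids and drugs, and the glucuronides made in hepatocytes are then exported into bile or blood. Family 3 uses other sugar donors: human UGT3A1 transfers N-acetylglucosamine, with the bile acid ursodeoxycholic acid among its acceptors, and human UGT3A2 transfers glucose or xylose.

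The 8 family 2 genes lie in 1 stretch of chromosome 5, from 86889767 to 87424203 (mm10, GENCODE release 21), and span 534 kb. Ugt2b35 is on the plus strand and the other 7 are on the minus strand. The 2 family 3 genes lie side by side on the plus strand of chromosome 15, Ugt3a1 from 9276888 to 9315032 and Ugt3a2 from 9335550 to 9370955. Of the 10 genes, 9 had a promoter in the RefSeq table (GRCm38.p6, the build also called mm10). The STAT5 pattern TTCNNNGAA, which reads the same on either strand, was not found exactly in the 250 bases before the start in any of the 9, and was in 7.02% of 32851 mouse promoters. The 100 bases before the start are shown for Ugt2b1, which had the largest fall among the tested members, and for Ugt2b5, Ugt2b37 and Ugt2b38, near copies of each other, of which Ugt2b5 had a far higher level than the other 2. They read 5′ to 3′ on the strand of the gene, and capitals mark the longest run that the 3 near copies share.
Ugt2b1: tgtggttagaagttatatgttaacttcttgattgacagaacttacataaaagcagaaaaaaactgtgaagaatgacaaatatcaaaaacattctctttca
Ugt2b5: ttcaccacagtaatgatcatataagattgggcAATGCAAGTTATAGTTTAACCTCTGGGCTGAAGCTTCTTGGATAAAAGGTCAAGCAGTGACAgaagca
Ugt2b37: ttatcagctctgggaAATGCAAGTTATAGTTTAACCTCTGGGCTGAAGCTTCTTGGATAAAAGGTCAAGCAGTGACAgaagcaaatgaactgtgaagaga
Ugt2b38: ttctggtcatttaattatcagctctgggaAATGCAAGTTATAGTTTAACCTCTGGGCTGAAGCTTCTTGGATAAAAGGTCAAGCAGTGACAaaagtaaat
The Ugt2b1 window is chr5:86926504-86926603, and those of Ugt2b5, Ugt2b37 and Ugt2b38 are chr5:87140341-87140440, chr5:87254789-87254888 and chr5:87424204-87424303, all on the minus strand. The run in capitals is 62 bases long and begins 68, 85 and 71 bases before the start in Ugt2b5, Ugt2b37 and Ugt2b38. Between Ugt2b37 and Ugt2b38 the longest shared run of these windows was 77 bases, while Ugt2b1 shared at most 8 bases in a row with Ugt2b5 or Ugt2b38 and 11 with Ugt2b37. Ugt2b36 shared a run of 24 bases with Ugt2b5. These runs describe the letters only, and the RefSeq starts were not checked against reads. Windows and offsets follow the RefSeq starts, which differ from GENCODE in some genes. The GENCODE spans of Ugt2b1 and Ugt2b37 reach 86926530 and 87254804, inside the windows shown.

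Libraries summed to between 18882220 and 24098512 counts, and levels are given as CPM, read counts scaled to a common library size with TMM factors. Means are given ± SD over the n = 3 libraries of a genotype throughout, and p-values named edgeR are adjusted by the Benjamini-Hochberg method over all tested genes. Sesn3 had 18, 18 and 16 counts in KO and 172, 200 and 195 in WT, a fall of 14.4-fold (edgeR adjusted p = 0.00183). Of 12945 genes tested, 6.94% passed an adjusted p of 0.05 in edgeR, 463 lower (3.58%) and 435 higher (3.36%) in KO. With library sizes as the only scaling, the split was 258 lower and 707 higher, and the median log2 change of the same genes moved from 0.00 to 0.21. The hepatocyte marker list summed to between 85583 and 103923 CPM in KO and between 82009 and 136330 CPM in WT, and most of that sum was Alb. Of its 6 tested genes 5 had a negative log2 change, with a median of -0.62, and 1 was called, Serpina1c, which was lower. At an unadjusted p under 0.05 in edgeR 4 of the 6 were lower, and DESeq2 called 4 lower. The list for stellate cells and fibroblasts summed to between 840 and 1109 CPM in KO and between 219 and 444 CPM in WT, and 4 of 6 were called higher, Col1a1, Col1a2, Col3a1 and Dcn. Macrophage markers summed to between 1345 and 1640 CPM in KO and between 632 and 1505 CPM in WT, with Clec4f and Vsig4 of 6 called higher. Cholangiocyte markers summed to between 112 and 134 CPM in KO and between 54.8 and 99.3 CPM in WT, with Prom1 of 6 called higher. Most of the cholangiocyte sum was Spp1, which was not called (edgeR adjusted p = 0.513). Of 6 markers of liver zones, 3 were called lower: Glul and Cyp2e1, of the central zone, and Cyp2f2, of the portal zone. The other portal markers, Hal and Sds, had positive log2 differences, 0.75 and 0.41 (edgeR adjusted p = 0.332 and 0.597). Oat, of the central zone, had a log2 difference of -1.35 (edgeR adjusted p = 0.123). No endothelial marker of 5 and no lymphocyte marker of 6 was called in edgeR, DESeq2 or limma-voom, with 1 of each at an unadjusted p under 0.05 in edgeR. Prom1 and Glul passed without any 1 library, and the other 9 marker calls were lost without KO replicate 2, with an edgeR adjusted p between 0.0625 and 0.157. The part of these marker differences in the UGT results was not tested. Kidney proximal tubule markers, looked for because kidney also expresses family 3 genes, had a single count over all libraries, with 3 of the 4 genes at 0.

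Most of these UGT genes were lower in KO liver. Of the 10 members, 9 had enough counts to be tested, all 9 had a negative log2 fold change, and 6 passed the test, all of them lower: Ugt2b1, Ugt3a1, Ugt3a2, Ugt2a3, Ugt2b5 and Ugt2b36. Over all tested genes 6.94% passed in either direction and 3.58% were lower. DESeq2 called 8 members lower, where 13.7% of its genes passed and 7.24% were lower, and limma-voom called 7, where 6.7% passed and 3.42% were lower. No member rose: 0 had an unadjusted p under 0.05 in the upward direction in edgeR, and 0 were called higher in DESeq2 or limma-voom. The median log2 change of the 9 tested members was -1.01, against 0.00 over all tested genes. In 8 of the 10 genes, or 7 of the 9 tested, every KO library was below every WT library, as was the case for 16.6% of all tested genes, while in 33.5% the groups were apart in either direction. In whole liver, fewer hepatocytes and less RNA per hepatocyte cannot be told apart.

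**Figure D1:**
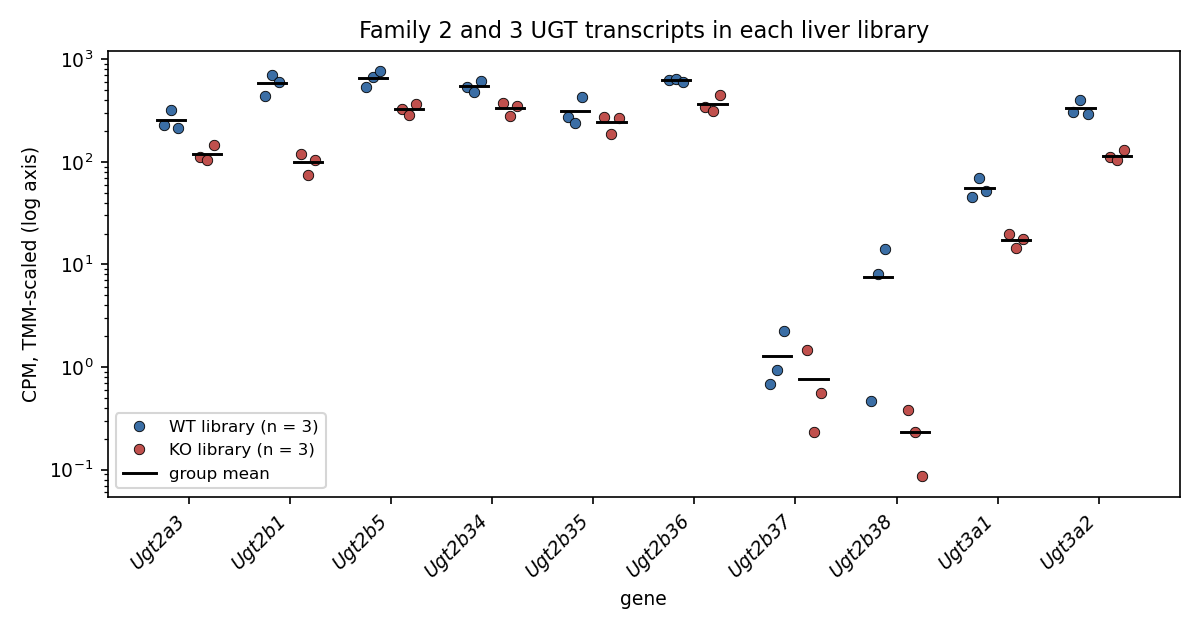
Level of each of the 10 genes in each library (CPM, log axis), with KO and WT libraries as points and a line at the mean of each group. All 3 KO points lie below all 3 WT points except in Ugt2b35 and Ugt2b37, and the widest gap among the abundant genes is in Ugt2b1.

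Ugt2b1 had the largest change among the tested members. It encodes a steroid-conjugating enzyme whose rat counterpart acts on testosterone and bisphenol A, and it lies at chromosome 5 from 86916638 to 86926530 on the minus strand. It was at 119, 75.2 and 104 CPM in KO replicates 1 to 3 and at 442, 701 and 598 CPM in WT replicates 1 to 3. The lowest WT library was thus above the highest KO library, with no overlap. The means were 99.2 ± 22.2 and 580 ± 131 CPM (SD, n = 3 each), and the log2 fold change was -2.55 (SE 0.25), or 5.85-fold lower (edgeR adjusted p = 0.00429). The call was kept without any single library, with an adjusted p of at most 0.0346.

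The 2 family 3 genes fell next most. Ugt3a1 was at 19.7, 14.6 and 17.7 CPM in KO and at 45.8, 69.2 and 51.8 CPM in WT. Ugt3a2 was at 111, 104 and 130 CPM in KO and at 308, 397 and 289 CPM in WT. In both genes all 3 KO libraries were below all 3 WT libraries, and WT replicate 2 was the highest. Ugt3a1 fell by 1.68 on the log2 scale (SE 0.19, edgeR adjusted p = 0.00612) and Ugt3a2 fell by 1.53 (SE 0.17, 2.88-fold, edgeR adjusted p = 0.00612). Without any 1 library both still passed, with an adjusted p of at most 0.0424 and 0.0484. Their ratio within a library did not move with genotype beyond its spread: Ugt3a1 had 0.151 ± 0.0228 counts per count of Ugt3a2 in KO and 0.167 ± 0.0163 in WT (two-sided exact permutation p = 0.3).

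Ugt2a3 and Ugt2b5 were close to 2-fold lower. Ugt2a3, whose human counterpart conjugates bile acids, lies at chromosome 5 from 87324972 to 87337195 and was at 111, 103 and 147 CPM in KO and at 228, 319 and 212 CPM in WT. Ugt2b5, at 87124960 to 87140318, was at 328, 285 and 365 CPM in KO and at 533, 673 and 767 CPM in WT. The groups did not overlap in either gene. Ugt2a3 was 2.10-fold lower (log2 fold change -1.07, SE 0.21, edgeR adjusted p = 0.0288) and Ugt2b5 was 2.02-fold lower (log2 fold change -1.01, SE 0.19, edgeR adjusted p = 0.0252). Both calls were lost when any 1 KO library or WT replicate 3 was left out, with adjusted p up to 0.129 in Ugt2a3 and up to 0.124 in Ugt2b5.

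Ugt2b36 and Ugt2b34 changed less and stood on either side of the threshold. Ugt2b36, at 87065927 to 87092555, was at 344, 316 and 443 CPM in KO and at 621, 635 and 605 CPM in WT. Its WT libraries were tightly grouped, with a coefficient of variation of 2.43% against 18.2% in KO, and the groups did not overlap. It was 1.69-fold lower (log2 fold change -0.76, SE 0.17, edgeR adjusted p = 0.0437), and leaving out any 1 library ended the call, with adjusted p from 0.0606 to 0.174. Ugt2b34, at 86889767 to 86906937, was at 373, 278 and 349 CPM in KO and at 541, 484 and 609 CPM in WT, also with no overlap. Its log2 fold change of -0.71 (SE 0.17) missed the threshold in edgeR (adjusted p = 0.0529) and passed it in DESeq2 (adjusted p = 0.00106) and limma-voom (adjusted p = 0.0496). With 1 library left out, Ugt2b34 missed it in 5 of 6 edgeR fits, with adjusted p up to 0.189. With library size only it missed as well (edgeR adjusted p = 0.144).

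Ugt2b35, the member on the plus strand, from 87000860 to 87013275, had overlapping groups. It was at 274, 187 and 269 CPM in KO and at 272, 237 and 433 CPM in WT, and WT replicate 3 stood above the other 5 libraries. The log2 difference was -0.37 (SE 0.26, edgeR adjusted p = 0.422), and no alternative called it.

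Ugt2b37 and Ugt2b38 were near the bottom of the measured range in most libraries. Ugt2b37, at 87240493 to 87254804, had 35, 6 and 13 counts in KO and 13, 16 and 42 counts in WT, with overlapping groups (log2 difference -0.77, SE 0.73, edgeR adjusted p = 0.550). Ugt2b38, at 87409942 to 87424203, had 9, 6 and 2 counts in KO and 9, 139 and 266 counts in WT. WT replicate 1 therefore sat with the KO libraries, with the same 9 counts as KO replicate 1, so that the groups were apart in CPM by a small margin, and WT replicates 2 and 3 stood far above them. The filter on low counts removed Ugt2b38 from the test. In CPM its KO libraries were at 0.380, 0.232 and 0.0862 and its WT libraries at 0.471, 8.08 and 14.2, with an exact permutation p of 0.1, the smallest that 3 against 3 allow. DESeq2 was run without the edgeR filter, and its own default filtering kept Ugt2b38. It called the gene lower (log2 fold change -5.03, adjusted p = 0.00130), and edgeR with no low-count filter did not (-4.98, adjusted p = 0.102).

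**Figure D2:**
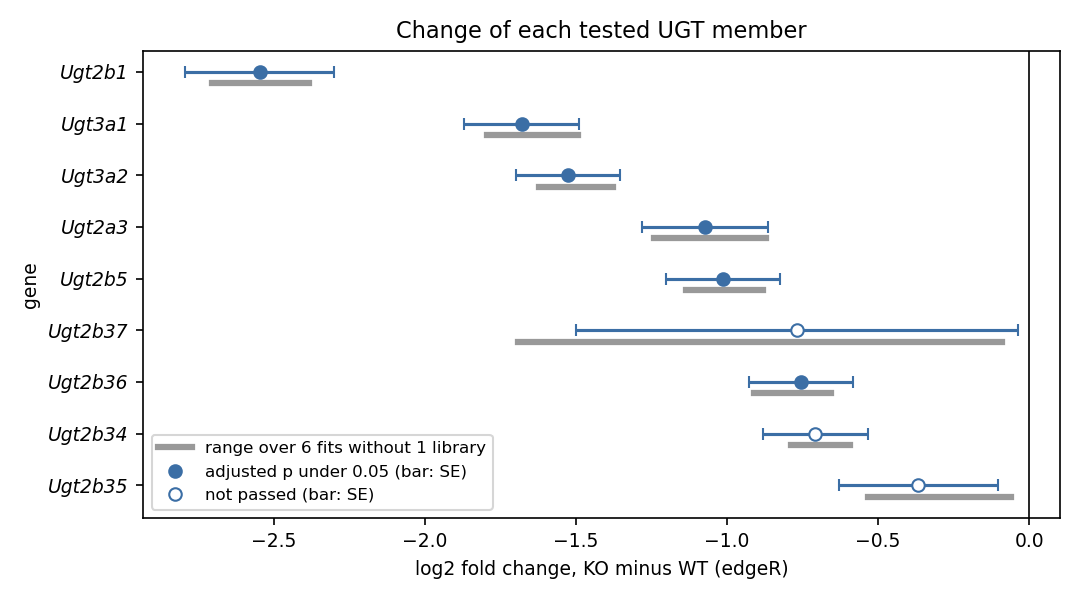
Log2 fold change of KO against WT for each tested gene, with its standard error as bars and a grey line for the range over the 6 fits without 1 library. The values run from -2.55 in Ugt2b1 to -0.37 in Ugt2b35, and 6 of the 9 passed an adjusted p of 0.05.

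The transcripts of the 10 genes together were lower in KO, and Ugt2b1, Ugt3a1 and Ugt3a2 made up a smaller part of them, with no overlap between groups. The 10 genes summed to 1681, 1363 and 1825 CPM in KO and to 2991, 3524 and 3581 CPM in WT, with means of 1623 ± 236 and 3365 ± 326 CPM, a ratio of 2.07 with no overlap. The 8 family 2 genes held most of it, at 1491 ± 222 and 2978 ± 309 CPM, and the 2 family 3 genes were at 132 ± 14.6 and 387 ± 68.7 CPM. Ugt2b1 took 7.07%, 5.51% and 5.68% of the reads of the 10 genes in KO and 14.8%, 19.9% and 16.7% in WT, with no overlap (two-sided exact permutation p = 0.1, the smallest that this design allows). Ugt3a2 went from 9.88 ± 1.63% in WT to 7.12 ± 0.509% in KO and Ugt3a1 from 1.65 ± 0.277% to 1.07 ± 0.102% (exact permutation p = 0.1 for either gene). Ugt2b34 made up 20.6 ± 1.54% in KO and 16.3 ± 2.26% in WT, and Ugt2b35 made up 14.9 ± 1.30% and 9.30 ± 2.69% (exact permutation p = 0.1 for either gene). Shares within a library have a fixed total, so a smaller share of Ugt2b1 leaves a larger part to other genes. Mean CPM was lower in KO for Ugt2b34, at 333 against 545, and for Ugt2b35, at 243 against 314 with overlapping groups. The share of Ugt2b5 was 20.1 ± 0.706% in KO and 19.4 ± 1.83% in WT (exact permutation p = 0.6), within the spread between libraries. Set against Ugt2b35 in the same library, Ugt2b1 had 0.434, 0.402 and 0.385 counts per count in KO and 1.63, 2.96 and 1.38 in WT. The groups did not overlap (exact permutation p = 0.1). This pair joins the largest and the smallest log2 change of the tested members, so its gap is given as a description only.

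Per kilobase of exon, so that genes can be compared, Ugt2b5 and Ugt2b36 had the highest levels in both genotypes. In WT, Ugt2b5 was at 354 ± 63.5 CPM per kb and Ugt2b36 at 301 ± 7.33, and their ranges overlapped. Ugt2b1 followed at 225 ± 50.8, apart from both Ugt2b36 above it and Ugt2b34 below it, at 126 ± 14.4. Ugt2a3, Ugt3a2 and Ugt2b35 came next, at 119 ± 27.3, 107 ± 18.5 and 93.4 ± 31.2 CPM per kb, and each overlapped its neighbour. Ugt3a1 was lower, at 20.8 ± 4.55 CPM per kb, and Ugt2b38 and Ugt2b37 averaged 4.01 and 0.678. In KO, Ugt2b36 and Ugt2b5 were at 179 ± 32.4 and 175 ± 21.5 CPM per kb with overlapping ranges, and Ugt2b34, Ugt2b35 and Ugt2a3 at 77.3 ± 11.4, 72.5 ± 14.6 and 56.8 ± 11.1. Ugt2b1 stood after these at 38.6 ± 8.62, overlapping Ugt3a2 at 37.1 ± 4.33, so that its rank was 3 in WT and 6 in KO, or 7 in KO with the longest transcript as the length.

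The family 2 members are neighbours, and several are near copies, which limits how their reads can be assigned. Ugt2b5, Ugt2b35, Ugt2b36, Ugt2b37 and Ugt2b38 were between 86.1% and 97.0% identical over their coding sequences (10 pairs). Ugt2b5 and Ugt2b38 were the closest, at 97.0% with an unbroken identical run of 443 bases, and Ugt2b5 and Ugt2b37 were at 94.7% with a run of 118 bases. The other 18 pairs within family 2, Ugt2b1 and Ugt2b34 included, were between 64.1% and 74.5% identical, and Ugt3a1 and Ugt3a2 were at 93.2% with a longest run of 90 bases. How reads with more than 1 matching gene were counted is not given in the sources used here, so the separate values of the 5 near copies, and the split between Ugt3a1 and Ugt3a2, are uncertain. Ugt2b38 had 0.116%, 0.0812% and 0.0236% of the counts of Ugt2b5 in KO and 0.0884%, 1.20% and 1.85% in WT. With the near copies summed, the 5 Ugt2b genes together fell short of a call (log2 difference -0.77, SE 0.20, edgeR adjusted p = 0.0583), while Ugt3a1 and Ugt3a2 together were lower (log2 fold change -1.55, SE 0.17, edgeR adjusted p = 0.00622).

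**Figure D3:**
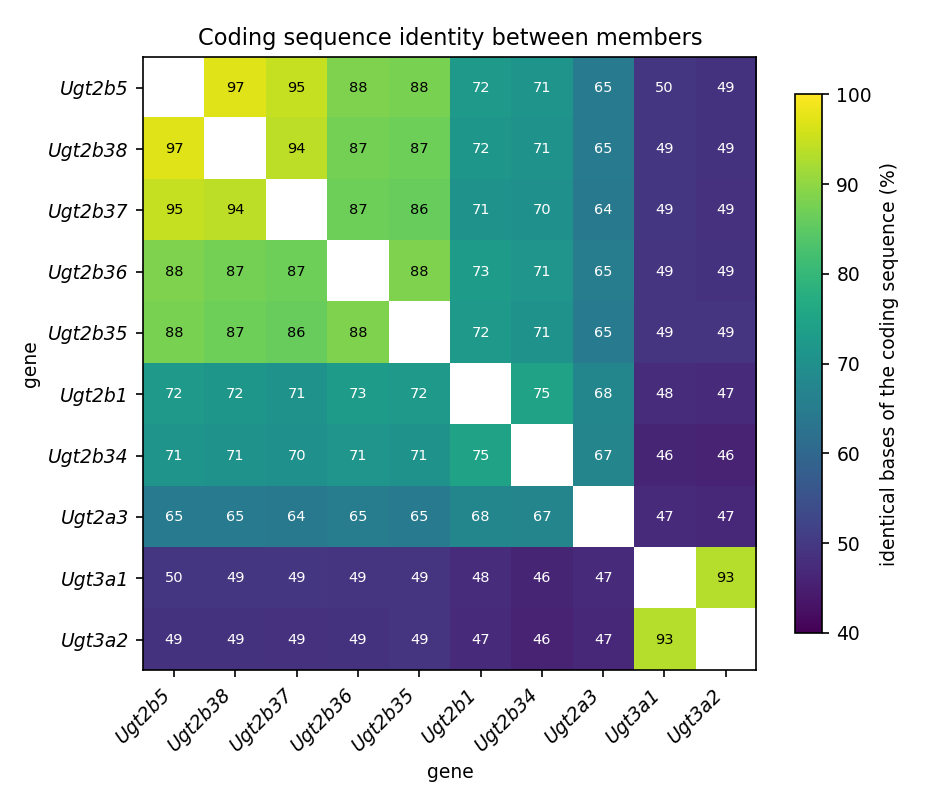
Identity of the coding sequences of the 10 genes in percent, as a matrix with 1 row and 1 column for each gene. The 5 near copies form a block of 86.1% to 97.0%, Ugt3a1 and Ugt3a2 are at 93.2%, and family 2 against family 3 is at 45.8% to 49.5%.

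Neighbouring genes of the chromosome 5 stretch had log2 changes of different size. Ugt2b34 and Ugt2b1 are next to each other, with log2 changes of -0.71 and -2.55, and Ugt2b35, on the other side of Ugt2b1, was at -0.37. Within 500 kb on either side of the cluster, 21 other genes were in the table, 4 were tested and 0 were called in edgeR. Those 4 ran from a log2 change of -1.20 in Sult1b1, a cytosolic sulfotransferase (edgeR adjusted p = 0.0655), to 1.56 in Sult1e1, the oestrogen sulfotransferase. Sult1e1 had only 102 counts over all libraries together (edgeR adjusted p = 0.387). Ugt2a1 and Ugt2a2, the olfactory family 2 genes, had 0 counts in every library, which allows up to 3 counts in a library.

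**Figure D4:**
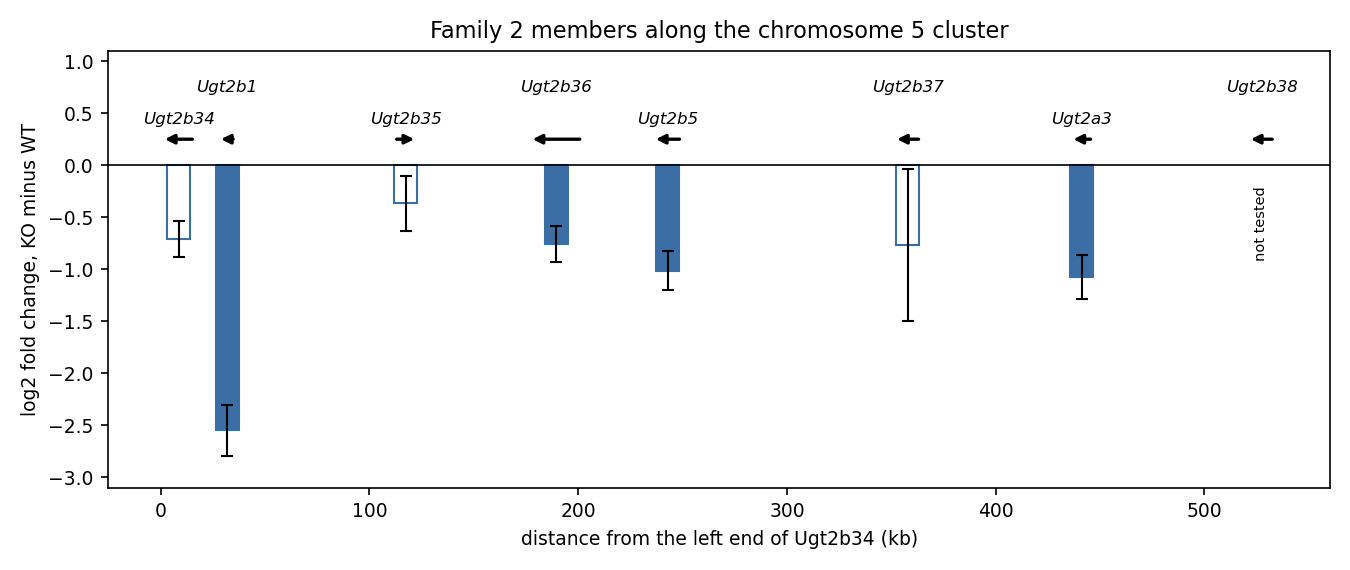
Log2 fold change of each tested gene of the chromosome 5 stretch as a bar with its standard error, against distance in kb from the left end of Ugt2b34, with arrows for the genes and their strands. Ugt2b1 at -2.55 lies between Ugt2b34 at -0.71 and Ugt2b35 at -0.37.

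The other UGT genes did not move in a single direction, though most of those tested had a negative log2 change. Of 12 listed, 11 were in the table, 6 were tested and 3 were called, 1 higher and 2 lower. The log2 change was negative in 4 of the 6, with a median of -0.88, against -1.01 in the 9 tested members. At an unadjusted p under 0.05 in edgeR 4 were lower and 1 was higher, and DESeq2 called 4 lower and 1 higher. Ugt1a9, which in human liver conjugates phenols and fatty acids, rose from 13.8 ± 3.90 CPM in WT to 40.0 ± 3.82 CPM in KO, or 2.89-fold (edgeR adjusted p = 0.0108), and the call was lost without KO replicate 2 (0.0505) or WT replicate 3 (0.051). Ugt1a6a and Ugt1a6b, phenol-conjugating forms, were lower, with log2 fold changes of -0.85 and -1.05 (edgeR adjusted p = 0.0367 and 0.0197), and both calls were lost without KO replicate 1 or 2 or WT replicate 3. The Ugt1a6a call was also lost without WT replicate 1 (0.0606) and with library size only (0.0734). Ugt1a1, the bilirubin-conjugating enzyme, was at 120.3 ± 33.2 CPM in KO and 226 ± 38.7 CPM in WT, with a log2 difference of -0.91 that missed the threshold (edgeR adjusted p = 0.0614). Ugt1a5, at 0.944 ± 0.282 CPM in KO and 3.64 ± 2.20 CPM in WT, also missed it (log2 difference -1.95, edgeR adjusted p = 0.0550). The Ugt1a genes share their last exons, so their separate counts are uncertain.

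Of 10 tested genes that supply or use UDP-glucuronic acid, 1 was called, Pgm1, a phosphoglucomutase. It was at 16.3 ± 2.72 CPM in KO against 8.81 ± 1.77 CPM in WT (log2 fold change 0.89, edgeR adjusted p = 0.0437). Leaving out any 1 library ended that call. In edgeR 0 were called lower, where 2 had an unadjusted p under 0.05 in that direction, and 0 were in limma-voom, while DESeq2 called 2 lower. Ugdh, which makes UDP-glucuronic acid, had a log2 difference of -0.27 (edgeR adjusted p = 0.725), and Ugp2, which makes UDP-glucose, one of -0.66 (0.0934). Pgm2, more abundant than Pgm1, was at 202 ± 25.1 CPM in KO and 285 ± 16.7 CPM in WT. Its log2 difference was -0.50 (edgeR adjusted p = 0.0758). The median of the list was -0.08.

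Of 8 tested genes that release or use up glucuronate, 3 were called. Gusb, the lysosomal beta-glucuronidase that removes glucuronate from conjugates, rose 2.03-fold, from 56.7 ± 6.22 CPM in WT to 115 ± 8.16 CPM in KO (edgeR adjusted p = 0.00752), a call lost without KO replicate 2 (0.0544). Rgn, the gluconolactonase of the ascorbate pathway, was 4.92-fold lower, at 216 ± 56.6 against 1063 ± 178 CPM (edgeR adjusted p = 0.00496). Gulo, the last enzyme of ascorbate synthesis, was at 388 ± 34.8 against 677 ± 78.6 CPM (log2 fold change -0.80, edgeR adjusted p = 0.0314), a call lost without any 1 of 5 libraries, WT replicate 2 being the exception. The median log2 change of these genes was -0.21.

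Among 10 tested carriers of glucuronides and other organic anions, 1 was higher and 4 were lower, with a median log2 change of -0.26. Abcc4, which exports conjugates across the basolateral membrane into blood, rose 4.41-fold, from 7.25 ± 2.5 CPM in WT to 32.1 ± 4.34 CPM in KO (edgeR adjusted p = 0.00733). The uptake carriers Slco1a1, Slco1b2 and Slco2b1 were lower, with log2 fold changes of -6.02, -1.73 and -1.34 (edgeR adjusted p = 0.0112, 0.025 and 0.0129). Without KO replicate 2 all 3 missed the threshold, at 0.0633, 0.116 and 0.0777, as did Slco1a1 without KO replicate 3 (0.0558) and Slco1b2 without WT replicate 3 (0.0694). Slco1a1 varied widely in WT, at 69.3, 488 and 300 CPM. Slco1a4, also an uptake carrier, went the other way, at 80.0 ± 46.2 CPM in KO and 35.9 ± 11.9 CPM in WT. Its groups overlapped (log2 difference 1.16, edgeR adjusted p = 0.213). Abcg2, an exporter of the canalicular membrane, had a log2 fold change of -0.59 (edgeR adjusted p = 0.0431) and was lost without any 1 of 5 libraries and with library size only (log2 difference -0.39, adjusted p = 0.135). Abcc2, the main canalicular exporter of glucuronides, and Abcc3 had log2 differences of 0.08 and 0.24 (edgeR adjusted p = 0.843 and 0.567).

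**Figure D5:**
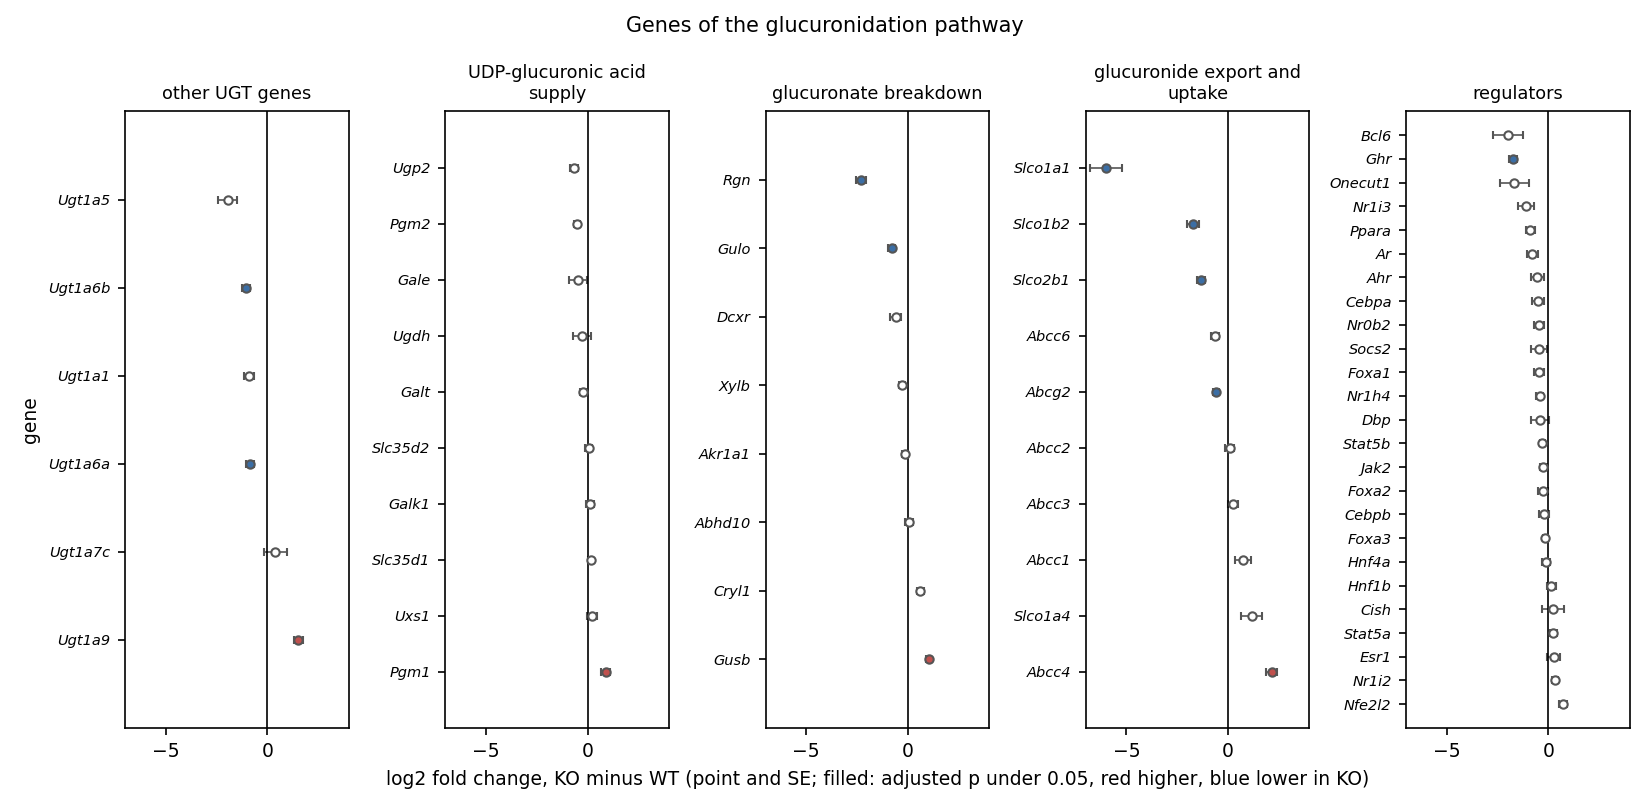
Log2 fold change of each tested gene in 5 lists around glucuronidation, 1 panel for each list, with standard errors as bars, called genes filled and 1 regulator left out. Called genes number from 1 of 26 regulators to 5 of 10 carriers, beside 6.94% of all tested genes, and lie on both sides of 0 except among the regulators and the supply genes, which have 1 each.

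Of 26 tested transcription factors and signalling genes known to act on UGT genes or on male-biased liver genes, 1 was called. Ghr, the growth hormone receptor, was 3.30-fold lower, at 141 ± 25.0 CPM in KO and 466 ± 82.4 CPM in WT (edgeR adjusted p = 0.00626), and the call was lost without KO replicate 2 (0.0525). Hnf4a and Stat5b differed by -0.14 and -0.29 (edgeR adjusted p = 0.698 and 0.225). In edgeR 0 regulators were called higher, where 2 had an unadjusted p under 0.05 in that direction, and limma-voom called 0 and DESeq2 called 2. On the other side, 20 of the 26 had a negative log2 change. Of these, 6 had an unadjusted p under 0.05 in edgeR, and limma-voom called 1 lower and DESeq2 called 3. The median of the list was -0.36.

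The genes whose profile over the 6 libraries was most like that of Ugt2b1 were sought among 12127 genes with a mean of at least 1 CPM, members left out, by the root mean square of the difference in centred log2 CPM. The nearest were Ces1f, a carboxylesterase, at 0.21, Serpina3k, a secreted serine protease inhibitor, at 0.22, Slc22a7, an organic anion carrier, at 0.23, Rgn at 0.28 and Srp54a, of the signal recognition particle, at 0.28. Ces1f was at 52.4, 23.7 and 35.2 CPM in KO and at 128, 282 and 189 CPM in WT, with WT replicate 2 highest and KO replicate 2 lowest, as in Ugt2b1. These genes were picked for that likeness, so their own changes are given as a description. They were between 4.92-fold and 7.54-fold lower in KO. The 7.54-fold was that of Srp54a, at low counts of 9, 8 and 8 in KO and 46, 43 and 56 in WT.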

How the data were processed

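The deposited values are raw read counts, whole numbers by gene symbol, in 1 column for each of the 6 liver libraries. Columns were matched to samples by title. Per the submitters' processing notes, the genome build was mm10 and the tools were edgeR 3.20.8, Subread 1.5.3, featureCounts and STAR 2.5. What each tool did, which annotation and strand setting were used and how reads shared between genes were counted is not given in the sources used here.

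Counts were tested with edgeR 4.0.16 (R 4.3.3): filterByExpr with a minimum count of 10 and a minimum total of 15, TMM factors, robust glmQLFit and glmQLFTest (quasi-likelihood, two-sided) for KO minus WT, adjusted by Benjamini-Hochberg over 12945 genes at 0.05. Standard errors are approximate and were taken from F and the log2 fold change. Single values such as shares were compared with two-sided exact permutation tests, which cannot go below 0.10 with 3 against 3. Mice are identified only as separate samples, so p-values measure the spread between these samples, which may be technical. No libraries were alike within sampling noise: chi-square per degree of freedom within groups was between 18.6 and 115. Counts of 0 allow up to 3 counts, for counting error only.

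Levels per kb used the union of exons in GENCODE mouse release 21 (mm10). Coding sequences were aligned with mafft 7.526. Promoters came from RefSeq (GRCm38.p6), with the STAT5 pattern and the windows shown chosen with the sequences in view. Profiles were compared on centred log2(CPM + 0.01) over all 6 libraries, for the called member with the smallest p. Members, gene lists and this rule were chosen with earlier results of these data known. The genes named are all members, every called gene of a list, Sesn3 and the 5 nearest profiles. Ugt1a1, Ugt2a1, Ugt2a2, Ugdh, Ugp2, Pgm2, Abcc2, Abcc3, Hnf4a, Stat5b, Sult1b1 and Sult1e1 were added after their values were seen. So were Ugt1a5, Slco1a4, Spp1, Oat, Hal and Sds. Of the regulator list, 1 gene that is in its counts is not reported here. The fit was tested on simulated counts. Alternatives were DESeq2 1.42.0, limma 3.58.1 (voom), library size only, upper-quartile or RLE factors, a fit with no low-count filter or with 1 CPM in 3 libraries, a fit without robust dispersion, each library left out, and near copies summed at 85% coding identity, chosen after seeing the data in place of a protein-based grouping that was not run. Python 3.11.15, pandas 2.3.3, scipy 1.17.1 and matplotlib 3.10.9 were used.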

Additional observations from a re-analysis of the deposited data

How the results depend on the processing

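The tested members kept a negative log2 fold change under every alternative in which each was fitted as a single gene, and Ugt2b37 did not pass the filter of 1 CPM in 3 libraries. Of the 6 called members, Ugt2b1, Ugt3a1 and Ugt3a2 stayed past the threshold in each fit of single genes. Members called numbered 5 with library size only, without Ugt2b36 (adjusted p = 0.0643), 7 in limma-voom, 8 in DESeq2 and 6 in the other normalizations and filters. Leaving out 1 library gave 3 to 6 members, with 3 in each fit without a KO library or without WT replicate 3, where the calls over all genes fell from 898 to between 101 and 295. DESeq2 called 1964 genes. In the lists, DESeq2 called 3 supply genes against 1, 5 other UGT genes against 3 and 5 regulators against 1, and library size only gave 2 regulators. Without 1 library the ranges were 0 to 4 for other UGT genes, 0 to 0 for supply, 1 to 3 for glucuronate breakdown, 1 to 5 for carriers and 0 to 2 for regulators. The cause of these changes was not tested. Leaving out 1 library moved the Ugt2b1 share of member reads to between 5.60% and 6.38% in KO and between 15.7% and 18.3% in WT. Without WT replicate 1, Ugt2b38 passed the filter and was called (log2 fold change -5.54, edgeR adjusted p = 0.00470). Ugt2b37 and Ugt2b38, with as few as 2 counts in a library, are limited by depth. No paired analysis was possible because the replicate numbers follow accession order and pair no samples.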
